A study of Mus musculus with 6 samples.

Results

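The genes described here encode receptors and ligands of the neurotrophin and GDNF families, the secreted factors on which sensory neurons depend for survival and for the growth of their axons. There were 9 of them (Ntrk2, Ntrk3, Ngfr, Ret, Gfra1, Gfra2, Gfra3, Bdnf and Ntf3) among the 36814 gene rows of the deposited expression table, and each had 1 row under its own symbol. RNA came from mouse proprioceptive neurons, the sensory neurons that report muscle length and force. One group supplied the tibialis anterior muscle (TA) and the other the gastrocnemius muscle (GS), with 3 pools each. Every animal carried the Pv::YFP reporter, which marks neurons that express parvalbumin. The tracer ctb-555, a labelled cholera toxin subunit taken up by nerve endings, was put into either muscle on postnatal day 0. Neurons carrying it were collected by hand on day 1 in pools of 25 to 30. Sex and the number of animals behind a pool were not given in the sources used here, hence p-values measure only the spread between these pools.

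Neurotrophins bind Trk receptor tyrosine kinases, each with its preferred ligand, and all of them bind the receptor encoded by Ngfr. Factors of the GDNF family bind GFRalpha co-receptors held in the outer membrane, and the complex then activates the kinase Ret. Proprioceptors are known for their dependence on neurotrophin 3, made by muscle spindles and other targets, and on its receptor TrkC, the product of Ntrk3. Many nociceptors are known instead for Ret with Gfra1, Gfra2 or Gfra3. Some touch receptors carry TrkB, the product of Ntrk2, or Ret with Gfra2.

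Values are RPKM, reads per kilobase of gene length scaled to a common number of reads, so levels of different genes can be set side by side. Where 3 values are given for a muscle, they are those of replicates 1, 2 and 3 in that order. Net reads in genes ranged from 7038296 to 21125960 per library. The table holds values below 0 for 683 rows, none of them a member, and 17439 rows are listed at 0 in every library. All 6 proprioceptor markers were above 0 in all 6 libraries, but their levels were not alike in the muscles. Etv1, a transcription factor induced by neurotrophin 3, lay between 202 and 323 RPKM, and Runx3, a transcription factor of TrkC neurons, between 11.0 and 21.4 RPKM. Pvalb, the parvalbumin gene, was at 69.0, 93.5 and 47.8 RPKM in TA and at 4.26, 10.4 and 31.3 RPKM in GS (limma adjusted p of 0.168), and Whrn was also higher in every TA pool, with means of 2.50 and 0.351 RPKM. Spp1, which encodes osteopontin, went the other way, from means of 5.36 RPKM in TA to 56.5 RPKM in GS (limma adjusted p of 0.0150). The part of these marker differences in the members' values was not tested. Of 10 nociceptor markers, 6 to 9 were above 0 in each library and Mrgprd was listed at 0 in all. They summed to between 168 and 404 RPKM in TA and between 247 and 438 RPKM in GS. Much of that sum was Prph, between 128 and 323 RPKM, an intermediate filament gene that many peripheral neurons express. TA replicate 3 held all 8 skeletal muscle markers, at a sum of 262 RPKM, where the other libraries had 1 to 3 of them and at most 5.12 RPKM. It also had the highest sums of connective tissue and vessel markers, 28.7 RPKM, and of blood and immune markers, 25.8 RPKM. The other libraries had at most 6.26 and 4.88 RPKM of these. GS replicate 2 had the highest Calca, which encodes the nociceptor peptide CGRP, at 133 RPKM.

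Ngfr, which encodes the neurotrophin receptor shared by all ligands of that family, had the highest level of the 9 genes. The TA pools had 190.5, 77.8 and 161 RPKM, and the GS pools 155, 236 and 146 RPKM. TA replicate 2 was the lowest and GS replicate 2 the highest, and the other two TA pools lay above the other two GS pools. Among the 10828 gene symbols tested, Ngfr stood between the 97.8th and the 99.4th percentile of each library. Glial cells around sensory neurons also express Ngfr. The 10 glial markers were all above 0 in every library and summed to 184, 219 and 222 RPKM in the TA pools and to 113, 236 and 144 RPKM in the GS pools, and their part in the level of Ngfr was not tested.

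Ntrk3, the TrkC gene, lay at 56.1, 38.1 and 44.7 RPKM in the TA pools and at 26.3, 39.6 and 25.5 RPKM in the GS pools. The groups overlapped only through TA replicate 2 and GS replicate 2, which differed by little. Its mean was 46.3 ± 9.13 RPKM for TA against 30.5 ± 7.90 RPKM for GS (SD, n = 3), and it stood between the 90.6th and 95.7th percentile of each library. Every value of Ntrk3 was far above every value of Ntrk2.

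Ntrk2, the TrkB gene, had the lowest level above 0. The TA pools had 0.781, 1.01 and 0.502 RPKM, and the GS pools 0.330, 1.58 and 0.416 RPKM. These rested on 83 to 470 net reads per library, and GS replicate 2 was the highest. The groups overlapped, and the mean over the 6 libraries, 0.769 RPKM, was below the level of 1 RPKM needed to enter the test. Ntrk2 makes full-length and truncated receptors, and a value per gene does not separate them.

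Gfra2, which encodes the co-receptor preferred by neurturin, had the second highest mean of the members and was the main GFRalpha gene. It was above Ntrk3 in only 3 of 6 libraries. It lay at 53.0, 58.6 and 40.5 RPKM in the TA pools and varied much more in GS, at 104, 47.1 and 16.2 RPKM. All 3 TA values fell inside the range of the GS values. Gfra2 made up 79.8%, 97.3% and 80.7% of the summed Gfra1 to Gfra4 RPKM in the TA pools, and 94.9%, 81.2% and 63.9% in the GS pools.

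Ret, the kinase through which the GFRalpha co-receptors signal, had a far lower level than Gfra2. The TA pools had 3.98, 1.62 and 4.25 RPKM, from 446, 157 and 1030 net reads. In GS it was at 0.171 RPKM in replicate 1, 2.13 RPKM in replicate 2 and listed at 0 in replicate 3, from 21, 309 and 0 net reads. The groups overlapped because GS replicate 2 was above TA replicate 2. Of 6 touch receptor markers, 3 were above 0 in each library. They summed to 10.1, 9.10 and 7.60 RPKM in the TA pools and to 1.96, 5.08 and 3.45 RPKM in the GS pools. Among them, Calb1 averaged 5.70 RPKM for TA and 0.942 RPKM for GS, and Maf 2.87 and 2.40 RPKM. Their part in the level of Ret was not tested. In a pool, fewer cells that express a gene and less RNA per cell cannot be told apart.

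Gfra1, the co-receptor preferred by GDNF, was concentrated in 2 libraries. GS replicate 2 had 7.72 RPKM from 834 net reads and TA replicate 3 had 2.54 RPKM from 458 net reads. The other values were 0.443 RPKM in TA replicate 1, 0.0109 RPKM in GS replicate 1 and 0.292 RPKM in GS replicate 3, and it was listed at 0 in TA replicate 2. GS replicate 2 and TA replicate 3 also had the highest sums of nociceptor markers, at 438 and 404 RPKM. Most of the sum in TA replicate 3 was Prph, at 323 RPKM, which many peripheral neurons express. That sum is therefore no clear measure of nociceptor RNA in that library. TA replicate 3 had the highest sums of skeletal muscle, connective tissue and blood markers as well. The part of these markers in the level of Gfra1 was not tested.

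Gfra3, the co-receptor preferred by artemin, lay at 0.197, 0.915 and 0.426 RPKM in the TA pools and at 2.59, 0.814 and 4.78 RPKM in the GS pools. These rested on 6, 24 and 28 net reads in TA and on 86, 32 and 161 in GS. The groups overlapped only because GS replicate 2 was slightly below TA replicate 2. By the mean, the nociceptor marker P2rx3 was higher in GS and Tac1 higher in TA, and their part in the level of Gfra3 was not tested.

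Of the 2 ligands, Bdnf, which encodes the brain-derived neurotrophic factor bound by TrkB, lay at 2.65, 1.18 and 1.85 RPKM in the TA pools and at 1.42, 2.53 and 1.27 RPKM in the GS pools. Its values ran over almost the same range in each group. Ntf3, which encodes neurotrophin 3, the ligand of TrkC, was listed at 0 in every library.

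**Figure D1:**
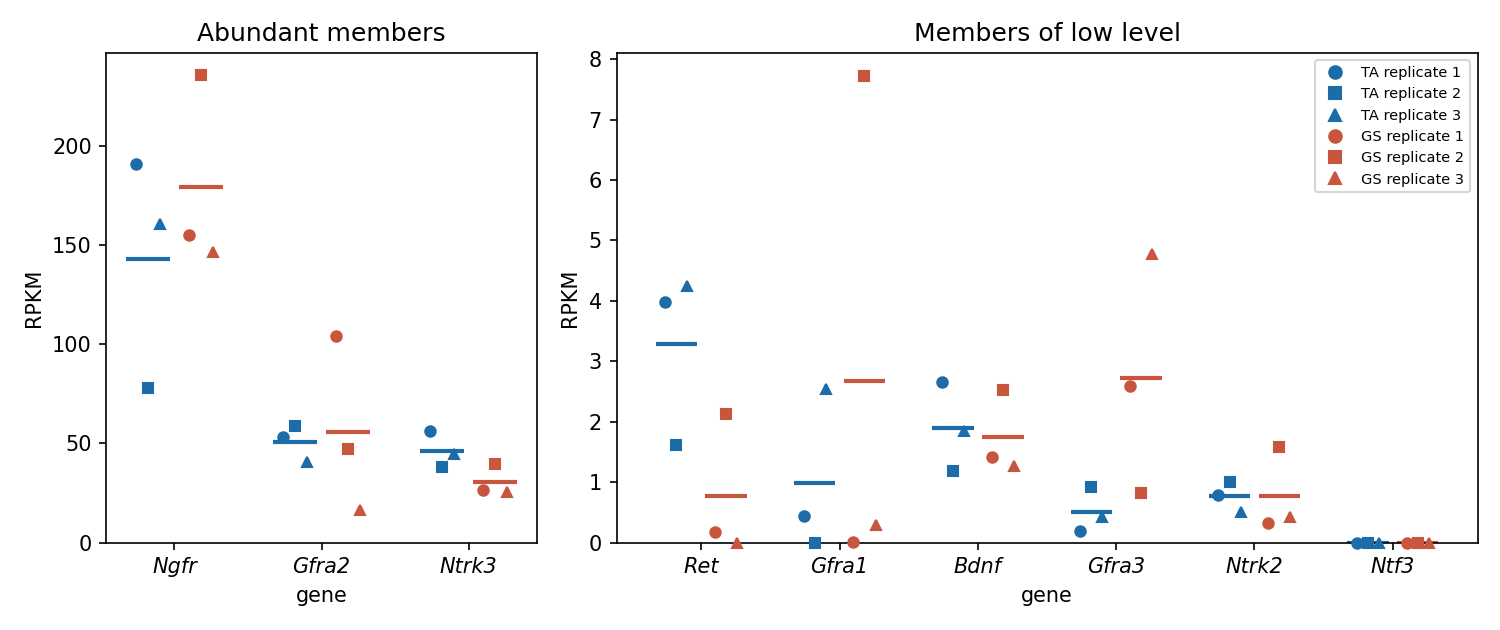
RPKM (vertical axes, linear) of the 9 genes in each library, TA in blue and GS in red, with a symbol for each replicate number and a horizontal line at each group's mean. Ngfr, Gfra2 and Ntrk3 lie between 16.2 and 236 RPKM, and the other genes lie below 8 RPKM with Gfra1 highest in GS replicate 2 and Ntf3 at 0 throughout.

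The order of the mean levels over the 6 libraries was Ngfr at 161, Gfra2 at 53.2, Ntrk3 at 38.4, Ret at 2.03, Gfra1 at 1.83, Bdnf at 1.82, Gfra3 at 1.62, Ntrk2 at 0.769 RPKM and Ntf3 at 0. Ngfr was above Gfra2 in 6 of 6 libraries. With the gene lengths of the table, Gfra2 was above Ntrk3 in 3 of 6, so these values do not set the order of these neighbours. Ntrk3 was above Ret in 6 of 6 libraries, by 18.9-fold in the mean. From Ret down to Ntrk2 each gene was above the next in only 2 to 4 of 6 libraries, and their order did not hold across pools. The length behind the RPKM matters for these ranks: the table gives Ntrk3 a length of 5241 bases, while its longest coding transcript in GENCODE M21 has 19703. With that length Ntrk3 would be at 10.2 RPKM in the mean and would still rank below Gfra2 and above Ret. Every value of Ntrk3 would then lie below every value of Gfra2, so the order of these 2 genes within libraries depends on the length used.

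Upstream sequences are shown for genes at very different levels. RefSeq promoters (build GRCm38.p6, not the mm9 build of the expression table) were at hand for 5 of the 9 genes. The 250 bases before a start site are shown for Ngfr, the highest member, for Ntrk2, the lowest above 0, and for a start of Ntf3, listed at 0, each 5′ to 3′ on the gene's strand with CG dinucleotides in capitals.
Ngfr, chr11:95587699-95587948, minus strand: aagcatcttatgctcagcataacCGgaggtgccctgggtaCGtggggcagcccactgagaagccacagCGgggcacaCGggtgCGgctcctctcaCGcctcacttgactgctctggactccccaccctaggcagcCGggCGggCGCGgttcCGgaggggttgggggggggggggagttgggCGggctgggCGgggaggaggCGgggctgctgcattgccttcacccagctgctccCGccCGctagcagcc
Ntrk2, chr13:58806319-58806568, plus strand: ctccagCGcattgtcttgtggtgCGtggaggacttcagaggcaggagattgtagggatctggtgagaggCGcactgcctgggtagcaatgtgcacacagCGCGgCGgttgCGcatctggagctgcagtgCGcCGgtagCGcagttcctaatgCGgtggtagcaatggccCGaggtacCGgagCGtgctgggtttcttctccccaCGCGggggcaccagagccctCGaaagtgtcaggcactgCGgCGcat
Ntf3, chr6:126164961-126165210, minus strand: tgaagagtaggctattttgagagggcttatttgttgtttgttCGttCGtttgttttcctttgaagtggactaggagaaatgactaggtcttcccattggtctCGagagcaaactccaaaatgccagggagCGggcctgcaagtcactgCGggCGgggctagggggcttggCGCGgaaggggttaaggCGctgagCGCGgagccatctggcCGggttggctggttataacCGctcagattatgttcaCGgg
The motif counted is CG, which reads the same on both strands. The Ngfr window holds 16, the Ntrk2 window 19 and the Ntf3 window 14. Over 32851 promoters the median was 6, 92.1% held at least 1, and 25.4%, 19.7% and 29.4% held at least as many as Ngfr, Ntrk2 and Ntf3. The members' other windows varied more: the other Ntf3 window holds 11, the Gfra1 window 10 and the 7 Bdnf windows 1 to 13, and 2 of those of Bdnf lie below the median. The Ntf3 window shown is the richer of its pair.

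The comparison between muscles asked which transcripts distinguish proprioceptors that supply TA, an ankle flexor, from those that supply GS, an ankle extensor. None of the 9 genes differed between TA and GS past the threshold. Of the 9, 7 had a mean of at least 1 RPKM and entered the test, and Ntrk2 and Ntf3 did not. By limma on log2(RPKM + 1), with Benjamini-Hochberg adjustment over 10828 genes, 0 of the 7 had an adjusted p under 0.05, where 0.305% of all genes did, 0.175% towards TA and 0.129% towards GS. At a limma unadjusted p under 0.05 there was 1, Ret, where 10.4% of all genes passed. Which member that was depended on scaling: with libraries centred on their median the limma unadjusted p was 0.0509 for Ret and 0.0349 for Gfra3, and with quantile normalization 0.0801 and 0.00977. In 0 of the 7 did the TA values and the GS values stand clear of each other, where 16.6% of all genes did, 13.1% towards TA and 3.48% towards GS. The median log2 fold change, TA minus GS, was 0.07 over the 7 genes and 0.24 over all genes tested. None of the 9 members is in the authors' deposited table for either muscle.

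Ret had the largest difference towards TA. Its means were 3.28 ± 1.44 RPKM for TA and 0.768 ± 1.18 RPKM for GS (SD, n = 3), with a log2 fold change of 1.41 ± 0.57 (SE) and a limma adjusted p of 0.432. The 95% interval of the log2 difference ran from 0.14 to 2.68. Ntrk3 had a log2 fold change of 0.60 ± 0.33, with an interval from -0.13 to 1.33 and a limma adjusted p of 0.576, which leaves room for a ratio of up to 2.51 on the RPKM + 1 scale. Gfra3 had the largest difference towards GS, with means of 0.513 ± 0.367 RPKM for TA and 2.73 ± 1.99 RPKM for GS. Its log2 fold change was -1.17 ± 0.55, with an interval from -2.39 to 0.04 and a limma adjusted p of 0.500. For Ret, Ntrk3 and Gfra3 the exact two-sided permutation p was 0.2 each, where 3 against 3 cannot go below 0.1.

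The other 4 genes had wide intervals around small differences. The log2 fold change was 0.21 for Gfra2, with an interval from -1.01 to 1.43, and 0.07 for Bdnf, from -0.95 to 1.10. It was -0.39 for Ngfr, from -1.20 to 0.43, and -0.39 for Gfra1, from -2.21 to 1.44. With 3 pools per muscle these intervals span changes of more than 2-fold in at least 1 direction for each of the 4 genes.

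**Figure D2:**
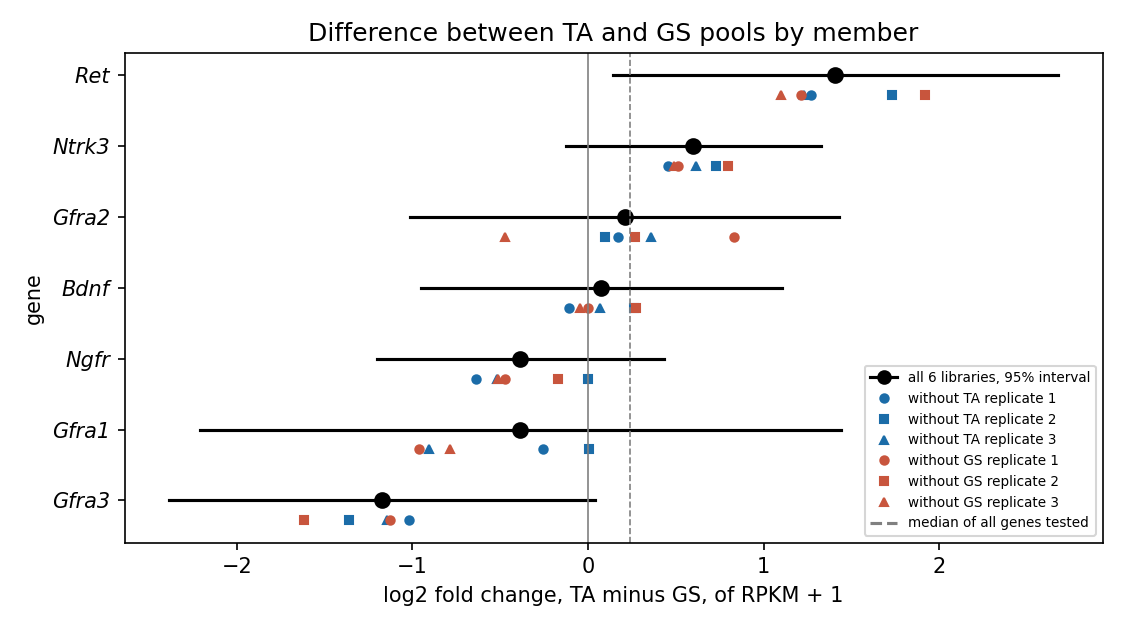
Log2 fold change, TA minus GS, of RPKM + 1 (horizontal axis) for the 7 genes tested, with black dots and 95% intervals from all 6 libraries. Small symbols give the value without 1 library, coloured by the muscle of the library left out. Ret lies furthest towards TA at 1.41 and Gfra3 furthest towards GS at -1.17, and the dashed line is the median of all genes at 0.24.

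For Ntrk3, Ret and Gfra3, a single library in each group decided whether the groups overlapped. Without GS replicate 2, Ntrk3 and Ret were higher in every TA pool than in every GS pool and Gfra3 was higher in every GS pool, 3 of 6 genes tested, where 28.8% of all genes stood clear. Their log2 fold changes were then 0.80, 1.92 and -1.62, with limma adjusted p of 0.425, 0.233 and 0.324. Gfra1 then fell below the level needed to be tested. Without TA replicate 2 the same 3 genes stood clear, of 7 tested, where 25.9% of all genes did. Their limma adjusted p was then 0.727, 0.606 and 0.702. With TA replicate 1, TA replicate 3, GS replicate 1 or GS replicate 3 left out, 0 members stood clear. Gfra3 was not tested without GS replicate 3. Without TA replicate 3, the log2 fold changes were 0.61 for Ntrk3, 1.23 for Ret and -1.15 for Gfra3. That library had the highest sums of skeletal muscle, connective tissue and blood markers.

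Ratios within a library do not depend on how libraries are scaled, and 3 ratios were formed between the 3 abundant genes after their values were seen. Ngfr over Ntrk3 was 3.40, 2.04 and 3.60 in TA and 5.89, 5.96 and 5.74 in GS. Every GS ratio was above every TA ratio, and the GS ratios differed little although the RPKM of both genes was highest in GS replicate 2 among the GS libraries. The means were 3.01 ± 0.844 in TA and 5.86 ± 0.111 in GS (SD, n = 3), with an exact two-sided permutation p of 0.1, the smallest possible. Such separation was common: of 3055 other genes with a mean of at least 10 RPKM and no library at 0, 22.7% had a ratio to Ntrk3 that was higher in every GS library than in every TA library, and 24.0% stood clear in either direction. Ngfr over Gfra2 was 3.59, 1.33 and 3.97 in TA and 1.49, 5.001 and 9.05 in GS, and Gfra2 over Ntrk3 was 0.945, 1.54 and 0.906 in TA and 3.96, 1.19 and 0.634 in GS. Both of these overlapped between muscles, with exact two-sided permutation p of 0.5 and 0.8.

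**Figure D3:**
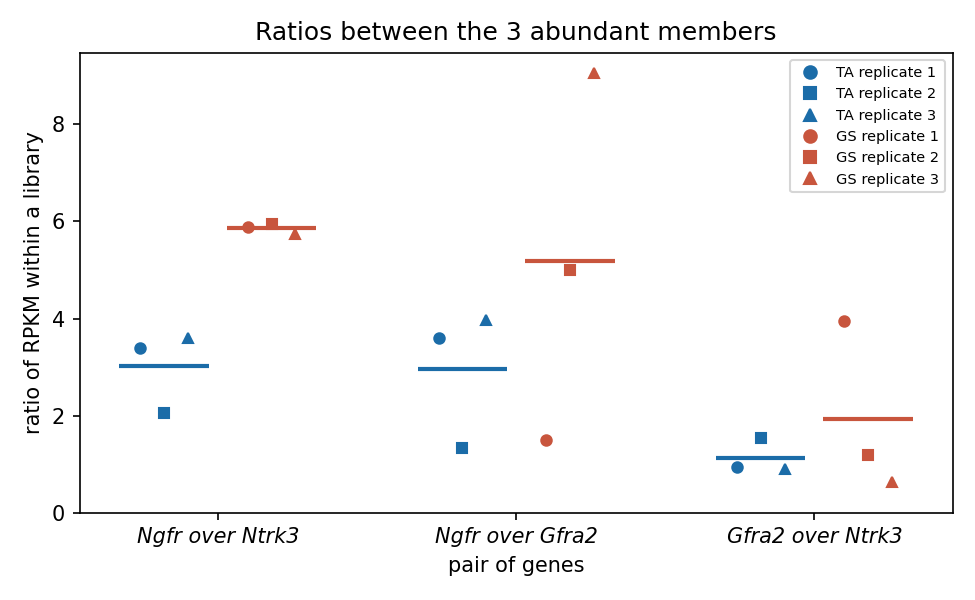
Ratio of RPKM within each library (vertical axis, linear) for the 3 pairs of abundant genes, TA in blue and GS in red, with lines at the group means. Ngfr over Ntrk3 lies between 5.74 and 5.96 in GS and between 2.04 and 3.60 in TA, and the other pairs overlap.

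Other receptors and processing enzymes of the same pathways were counted from a list of 22 symbols, 21 of them in the table and 10 tested. None passed the limma test over all genes in either direction, and 5 had an unadjusted p under 0.05, where 10.4% of all genes did. The TA and GS values stood clear of each other in 6 of the 10, 4 towards TA and 2 towards GS, where 16.6% of all genes did. This list, like the others, was chosen with earlier results of these data known, so these shares are not an independent comparison. The list's median log2 fold change was 0.50 against 0.24 for all genes. Ncam1, a cell adhesion molecule that can also bind GDNF with GFRalpha co-receptors, lay at 57.9, 56.5 and 58.7 RPKM in the TA pools and at 32.7, 21.02 and 26.2 RPKM in the GS pools. Its log2 fold change was 1.11 ± 0.31 with a limma adjusted p of 0.269. The TA values were close together and all above the GS values.

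Sortilin, the product of Sort1, and the related SorCS2 are sorting receptors that bind proneurotrophins together with the Ngfr product. Genes of this family did not lie on the same side. Sort1 averaged 15.4 ± 2.22 RPKM for TA and 8.83 ± 2.57 RPKM for GS, with a limma adjusted p of 0.515. Sorcs1 averaged 7.96 ± 0.780 RPKM for TA and 20.9 ± 7.46 RPKM for GS, with a limma adjusted p of 0.308. Sorcs2, singled out after its values were seen, had 10.1, 5.89 and 9.39 RPKM in the TA pools and 2.53, 4.82 and 3.44 RPKM in the GS pools. In all 3 the groups did not overlap. Pcsk1, a protease that cleaves precursors of secreted peptides, averaged 2.17 ± 1.33 RPKM for TA and 7.95 ± 5.60 RPKM for GS, with a limma adjusted p of 0.428, and GS replicate 2 was the highest at 14.2 RPKM.

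Other ligands were nearly absent from the table, as Ntf3 was. Ntf5, Gdnf, Artn, Pspn and Gdf15 were listed at 0 in every library, as was the receptor gene Gfral. Nrtn, which encodes neurturin, had 3 net reads in all. Bdnf, with 685 net reads in TA and 557 in GS, was the only ligand of the members and this list with a mean of at least 1 RPKM.

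Adaptors and effectors that act downstream of these receptors were counted from a list of 41 symbols, of which 35 were tested. None passed the limma test over all genes and 2 had an unadjusted p under 0.05, where 10.4% of all genes did. Of the 35, 8 stood clear (22.9%), 6 towards TA and 2 towards GS, where 16.6% of all genes did, 13.1% towards TA and 3.48% towards GS. The median log2 fold change was 0.17. Dok5, an adaptor that binds activated Ret, had 20.9, 17.2 and 3.02 RPKM in the TA pools and 0.305, 2.18 and 0 RPKM in the GS pools, where the last is a listed 0. Its log2 fold change was 2.86 ± 0.69 with a limma adjusted p of 0.183, and TA replicate 3 was close to GS replicate 2. Of the authors' deposited tables, that for TA lists Dok5 with a ratio of GS over TA of 0.105 and an adjusted p of 0.480. Akt1, a kinase of survival signals, averaged 15.8 ± 4.58 RPKM for TA and 6.20 ± 1.58 RPKM for GS, and Pik3r1, a regulatory subunit of the lipid kinase upstream of it, at 8.16 ± 1.15 and 13.8 ± 2.48 RPKM. Their limma adjusted p was 0.352 and 0.547. The most abundant genes of the list were Arhgdia, which encodes a GDP dissociation inhibitor of small GTPases, and Ngfrap1 and Maged1, whose products bind the Ngfr receptor. Their means over the 6 libraries were 200.3, 129.6 and 118 RPKM, and none of the 3 separated the muscles.

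Transcription factors and feedback genes linked to these signals came from a list of 15, of which 11 were tested and none passed limma, with 1 at an unadjusted p under 0.05, where 10.4% of all genes were. Of these, 2 stood clear towards TA and 1 towards GS, where 16.6% of all genes stood clear in either direction, and the median log2 fold change was 0.12. Spry2, a feedback inhibitor of receptor tyrosine kinases, had 19.9, 23.4 and 18.3 RPKM in the TA pools and 6.58, 13.8 and 11.2 RPKM in the GS pools, with a limma adjusted p of 0.428. Etv1 averaged 227 ± 32.1 RPKM for TA and 319 ± 5.59 RPKM for GS, with no overlap, whereas the mean of Ntrk3 was higher in TA. Mef2c averaged 23.4 ± 0.352 RPKM for TA and 15.3 ± 5.16 RPKM for GS, and Mef2a, of the same family of activity-regulated factors, at 50.3 ± 4.14 and 49.1 ± 16.4 RPKM.

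**Figure D4:**
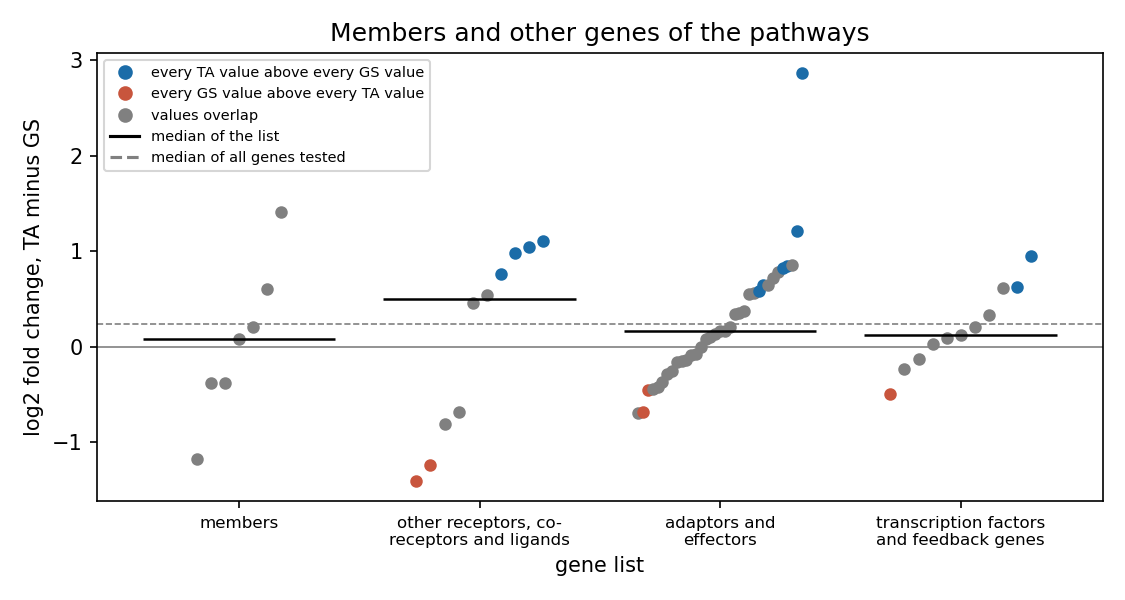
Log2 fold change, TA minus GS (vertical axis), of each tested gene in the members and the 3 other lists. Black lines are list medians (0.07, 0.50, 0.17 and 0.12), the dashed line is the median of all genes at 0.24, and colour marks genes whose TA and GS values do not overlap: 0 of 7, 6 of 10, 8 of 35 and 3 of 11. The members and lists were chosen with earlier results of these data known.

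The genes whose values ran most like those of a member over the 6 libraries were searched among 9071 tested genes with official symbols. For Ngfr, the most abundant, they were Nanos1, Rwdd2b, Adap1, Adcy2 and Gon4l, with Pearson's r of 0.98, 0.98, 0.97, 0.97 and 0.96. Each of the 5 was lowest in TA replicate 2 and highest in GS replicate 2, as Ngfr was. For Ret, the member with the smallest unadjusted p, they were Madd, Fam160b1, Mmp15, Tmeff2 and Tollip, with r of 0.99, 0.99, 0.99, 0.98 and 0.98. With 6 points and 9071 genes such values are common, 131 genes having r above 0.9 with Ret and 19 with Ngfr, and all points share the libraries' scale.

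In mm9 coordinates of the deposited table, Ntrk3 (ENSMUSG00000059146) lies on chromosome 7 from 85337248 to 85723294 and Ret (ENSMUSG00000030110) on chromosome 6 from 118101766 to 118147762, on the minus strand. Ngfr (ENSMUSG00000000120) lies on chromosome 11 from 95430132 to 95449049 and Gfra1 (ENSMUSG00000025089) on chromosome 19 from 58310094 to 58530399, also on the minus strand. Gfra2 (ENSMUSG00000022103) lies on chromosome 14 from 71289927 to 71379645 on the plus strand. Ret overlaps AC156396.1, an 87-base gene model on the opposite strand with at most 9.79 RPKM, and Gfra1 overlaps Gm16277, a 662-base model on the opposite strand with at most 10.7 RPKM. The use of strand in counting was not given in the sources used here, which leaves reads in those overlaps uncertain. The other 7 members overlap no other row of the table.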

How the data were processed

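Libraries were made from total RNA with the Ovation RNA-Seq System V2 and Nextera kits and sequenced as paired ends, per the labels' protocols. Bowtie 0.12.9, DESeq and build mm9 appear in the submitters' processing notes, and the counting program was not given in the sources used here. What the authors deposited were net reads and RPKM per library and, in lists of genes higher in 1 muscle, 1 RPKM per muscle, a ratio and p-values, per the file headers. Read columns hold values below 0, so no count model was used. Rows with a value below 0 were left out, the row with the highest mean was kept for each symbol, and 10828 symbols with a mean of at least 1 RPKM were tested on log2(RPKM + 1) with limma 3.58.1 under R 4.3.3 (empirical Bayes with trend, Benjamini-Hochberg, threshold 0.05). The pseudocount of 1 understates changes of low genes. A 0 is described as listed at 0. Permutation tests used scipy 1.17.1. The fit was tested on simulated data. Coordinates end at the last base, 1 less than the table's end, which matched 728 of 728 listed rows. Same-numbered libraries did not deviate together. Named genes were the members, from each list the 3 with the smallest unadjusted p and the 3 with the highest mean, and the 5 genes most like 2 members, beside genes said to be singled out. The members and lists were chosen with earlier results of these data known. In all, 16 processing alternatives were run.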

Additional observations from a re-analysis of the deposited data

How the results depend on the processing

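No member was called under any of the 16 alternatives, nor was a gene of the 3 other lists; 0 to 3 members had an unadjusted limma p under 0.05, 3 of them without GS replicate 2. Ntrk3 and Ret kept the direction towards TA and Gfra3 that towards GS wherever they were tested; Ret ranged from 0.53 with a pseudocount of 5 to 2.99 with a pseudocount of 0.1, and Gfra3 from -2.08 to -0.46. Genes called over the whole table numbered 33, against 13 with a pseudocount of 0.1, 0 without a filter on low values (limma over 18604 genes, 1501 at an unadjusted p under 0.05), 17 with a mean of at least 5 RPKM, 16 with the replicate block and 2 to 29 with 1 library left out (2 without TA replicate 3, 3 without TA replicate 1 or 2, 6 without GS replicate 1). Same-numbered pairs had correlations of -0.07, -0.02 and -0.14 of their deviations from group means, so the numbers are not read as pairs, and the replicate block changed no call of a member (0). Members whose groups did not overlap numbered 0 to 3 with 1 library left out. The direction turned for Ngfr (0.0014) and Gfra1 (0.0058) without TA replicate 2, for Gfra2 (-0.48) without GS replicate 3, and for Bdnf with median centring (-0.13), quantile normalization (-0.25) and without TA replicate 1 (-0.11), GS replicate 1 (-0.00056) or GS replicate 3 (-0.05); the cause was not tested. With 1 library left out Ngfr ranged from -0.64, Gfra1 from -0.96, Gfra2 up to 0.83 and Bdnf up to 0.27. The log2 difference of Gfra2 over Ntrk3 was -0.39, ranged from -0.99 to 0.34 and turned without GS replicate 1. With the longest coding transcript as length, an alternative chosen after seeing the data like those on ratios, Ntrk3 was at 10.2, Ntrk2 at 1.33 and Bdnf at 2.49 RPKM. Values of the 6 members of low level rest on 0 to 1030 net reads per library.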

Other observations

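Gfra4, a GFRalpha co-receptor gene, Pcsk2, a precursor protease gene, Sdc3 and Runx1 were singled out after their values were seen. Gfra4 lay at 12.8, 0.702 and 6.71 RPKM in TA and at 3.05, 2.39 and 4.07 RPKM in GS, so that TA held the highest and the lowest value. Pcsk2 lay at 9.06, 8.78 and 6.42 RPKM in TA and at 7.87, 25.3 and 12.04 RPKM in GS, highest in GS replicate 2 as Pcsk1 was. Sdc3, a heparan sulfate proteoglycan gene, lay at 12.1, 5.48 and 8.27 RPKM in TA and at 3.30, 2.97 and 4.96 RPKM in GS, every TA value above every GS value, with a limma adjusted p of 0.461. Runx1, a transcription factor gene of nociceptors, was listed at 0 in every GS library and in TA replicate 1, with 0.487 and 0.875 RPKM in the other two TA pools.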
